A study of Mus musculus with 16 samples.

Results

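The nuclear-encoded genes of oxidative phosphorylation were examined in RNA sequencing of mouse CD4 T cells. Members were the rows whose gene symbol begins with Nduf, Uqcr, Cox4 to Cox8 or Atp5, together with the succinate dehydrogenase genes Sdha to Sdhd. Of 23479 genes in the table, 92 met this rule. A filter on low counts kept 18430 genes for testing, 86 of the 92 among them. The rule is one of names: it takes in 8 complex I assembly factors and leaves out a few subunits with other names, which are described apart. The cells came from the spleens of C57BL/6 mice by immunomagnetic negative selection, in which unwanted cells are bound and removed. In the first group, 5 libraries came from mice without tumours, labelled as day 0 controls. The other mice had received Eu-Myc lymphoma cells, a B cell lymphoma in which a Myc transgene is driven by an immunoglobulin heavy chain enhancer, and were sampled at day 7 (7 libraries) or day 14 (4 libraries). The controls are not described as having received a mock transplant, and the age and sex of the mice are not given in the sources used here.

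Oxidative phosphorylation is carried out in the inner mitochondrial membrane. Complex I takes electrons from NADH and complex II from succinate, complex III passes them to cytochrome c, and complex IV hands them to oxygen, while complexes I, III and IV pump protons. Complex V, the ATP synthase, uses the returning protons to make ATP. A small number of core subunits of complexes I, III, IV and V are encoded in mitochondrial DNA, and those genes are not analysed here. Naive T cells rely largely on this pathway, and activated T cells build more mitochondria while also turning to glycolysis.

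Because the members lay lower together after transplant, the stretch before their start sites is shown from RefSeq (GRCm38.p6) for 4 of the called genes, and for a pair of ATP synthase genes that hold a match to NRF1. NRF1, ETS factors such as GABP, and YY1 are known regulators of these genes. Each promoter was searched on both strands for 1 exact run of letters per factor: GCGCA followed by its reverse complement for NRF1, CCGGAAG for ETS factors and AAGATGG for YY1, whose first 3 letters are the last 3 of the ETS run. Below are the 100 bases before the start, 5′ to 3′ on the gene's strand, with a match in capitals. Cox6a1 (complex IV, chr5:115348959-115349058, minus strand) holds the ETS letters in reverse complement, CTTCCGG. Atp5k (chr5:108434400-108434499, minus) and Atp5g2 (chr15:102671048-102671147, minus) hold the NRF1 letters. Ndufb2 (chr6:39592465-39592564, plus), Ndufb4 (chr16:37654369-37654468, minus) and Ndufc1 (chr3:51408956-51409055, minus), all of complex I, hold none of the 3 in these bases.
Cox6a1: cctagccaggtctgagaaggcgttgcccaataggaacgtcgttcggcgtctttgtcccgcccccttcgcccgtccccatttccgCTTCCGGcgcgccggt
Atp5k: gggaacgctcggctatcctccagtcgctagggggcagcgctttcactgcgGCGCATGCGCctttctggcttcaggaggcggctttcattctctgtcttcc
Atp5g2: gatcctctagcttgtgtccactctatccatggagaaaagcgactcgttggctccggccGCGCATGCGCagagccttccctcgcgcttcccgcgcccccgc
Ndufb2: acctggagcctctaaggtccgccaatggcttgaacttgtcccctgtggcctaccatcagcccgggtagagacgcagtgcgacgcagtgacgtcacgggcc
Ndufb4: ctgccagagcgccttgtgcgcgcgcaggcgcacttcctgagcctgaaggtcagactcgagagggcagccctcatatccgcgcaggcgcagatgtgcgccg
Ndufc1: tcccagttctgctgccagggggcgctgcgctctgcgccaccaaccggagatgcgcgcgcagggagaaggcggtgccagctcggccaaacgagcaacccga

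Over the whole window of 300 bases (250 before the start and 50 after it), 76 of the 92 members had an entry. The NRF1 letters lay in 7 of them (9.21%), against 1.83% of 13363 tested genes with a window. The ETS letters lay in 17 (22.4%, against 15.4%) and the YY1 letters in 12 (15.8%, against 7.65%). A match is a description of letters and not a binding site. Of the 73 members that were also tested, those with the NRF1 letters had a median log2 change at day 14 against control of -0.41, and those without -0.38. The medians were -0.46 and -0.36 with and without the ETS letters, and -0.47 and -0.36 with and without the YY1 letters. At day 7 the medians with and without were -0.32 and -0.33 for NRF1, -0.38 and -0.32 for ETS, and -0.32 and -0.33 for YY1. None of these differences was tested.

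The libraries held 21610411 to 27340070 gene counts in controls, 14493764 to 24916411 at day 7 and 14731908 to 17067236 at day 14. No day 14 library thus reached the lowest control. Reads with more than 1 alignment made up 8.74% to 10.1% of a library in controls. They made up 6.88% to 7.91% at day 7 and 6.67% to 7.94% at day 14, below every control. The part of these differences in the members' levels was not tested. Levels are given as CPM, a gene's counts relative to the library's gene counts after TMM scaling. Cd4 stood at 781 CPM or more in every library and Cd8a at 3.03 CPM or less. Control libraries 1 and 2 stood apart: 7 neutrophil markers summed to 727 and 2051 CPM in them, against 17.2 to 44.5 in the other controls, 0.802 to 31.7 at day 7 and 15.5, 48.3, 26.6 and 1378 in day 14 libraries 1 to 4. For 6 dividing-cell markers the sums were 1682 and 3877 CPM against 263 to 445 in the other controls. S100a8, a defining neutrophil marker, was at 0 in day 7 library 4 alone. At day 14 against control, 3 of the 7 neutrophil markers and 1 of 6 B cell markers were called lower, and none of the 6 dividing-cell markers. At day 7 no marker was called, but all 7 neutrophil, all 6 dividing-cell, 3 of 6 B cell, 2 of 5 macrophage and all 3 tested erythroid markers were lower at an unadjusted p of 0.05, with medians of -5.99, -2.01, -1.10, -1.18 and -3.24. The dividing-cell sums ran from 168 to 636 CPM at day 7 and from 349 to 1819 at day 14. B cell markers summed to 9.45 to 49.96 CPM in controls, 5.96 to 22.8 at day 7 and 8.69 to 17.0 at day 14. Reads outside gene models made up 47.1% to 56.7% of a library in controls, 54.6% to 68.0% at day 7 and 54.4% to 69.8% at day 14. In bulk RNA, fewer cells of a kind and less of a transcript per cell cannot be told apart.

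At day 7, 81 of the 86 tested members had a negative log2 change against control (94.2%, against 43.8% of all tested genes). The median was -0.33 beside +0.07 over all genes. Beside other genes of like transcript length and 10 CPM or more the gap was smaller (under 1000 bases, -0.35 and -0.21). No member passed singly by edgeR's quasi-likelihood test at an adjusted p of 0.05, where 0% of all genes were called lower and 0.0109% higher. At an unadjusted p of 0.05, 45 members were lower and 1 higher (12.7% and 8.43% of all genes). DESeq2 called 21 members, of which 1 was higher, among 1603 genes called in all, and limma-voom called 0 members. Every day 7 library lay below every control for 9 members, Atp5a1, Atp5b, Atp5g3, Atp5o, Cox4i1, Cox5a, Ndufb2, Ndufb8 and Ndufc1 (10.5%, against 0.982% of all genes), and above every control for 0 (0.988% of all genes). Without control library 5 edgeR called 13 members, of which 1 was higher, among 1455 genes called in all.

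By day 14, 83 members had a negative change (96.5%, against 42.3% of all genes) and the median was -0.38 beside +0.12 over all genes. The gap was again smaller beside other genes of like transcript length and 10 CPM or more (under 1000 bases, -0.47 and -0.34). By edgeR 5 fell, Ndufb2, Ndufa2, Cox6a1, Ndufb4 and Ndufc1, or 5.81% of the members, where 1.8% of all genes were called lower. None rose, where 1.33% of all genes were called higher. At an unadjusted p of 0.05, 51 members were lower (59.3%, against 11.8% of all genes). In 13 members every day 14 library lay below every control (15.1%, against 2.85% of all genes), and in 0 above every control (5.24%). The number of called members hung on single libraries. It was 28 without day 14 library 2, 3 without control 1, 2 without control 4 and 1 without day 14 library 4. It was 0 without control 3, day 14 library 1 or day 14 library 3. Leaving out 1 library, genes called in all ran from 65 (day 14 library 3) to 1458 (day 14 library 2). In a fit to the control and day 14 libraries alone no member was called, among 4 genes called in all. By limma-voom 11 members were called among 1003 genes, and by DESeq2 17 among 1551. Without control libraries 1 and 2 together (tried only once the values were known), 4 members were called (Ndufb2, Ndufa2, Cox6a1 and Cox7a2l) and the medians were -0.28 at day 14 and -0.25 at day 7, beside +0.31 and +0.12 over all genes.

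The last comparison set the times against each other. At day 14 against day 7, 60 of 86 had a negative change (40.6% of all genes did) with a median of -0.11, beside +0.12 over all genes. Beside other genes of like transcript length and a mean of 10 CPM or more the members' median was not lower (medians by length class are in the account of transcript length). None was called by edgeR, where 0.553% of all genes were called lower and 0.412% higher, and DESeq2 also called 0. At an unadjusted p of 0.05, 5 were lower and 1 higher (8.27% and 6.54% of all genes), and none lay in non-overlapping groups (2.78% of all genes as lower). Without day 14 library 2, 2 members were called, among 377 genes called in all. Scaled by library totals alone the median turned to +0.04, a setting that moved the median of all genes from +0.12 to +0.29. Both comparisons with control rest on the same 5 control libraries.

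**Figure D1:**
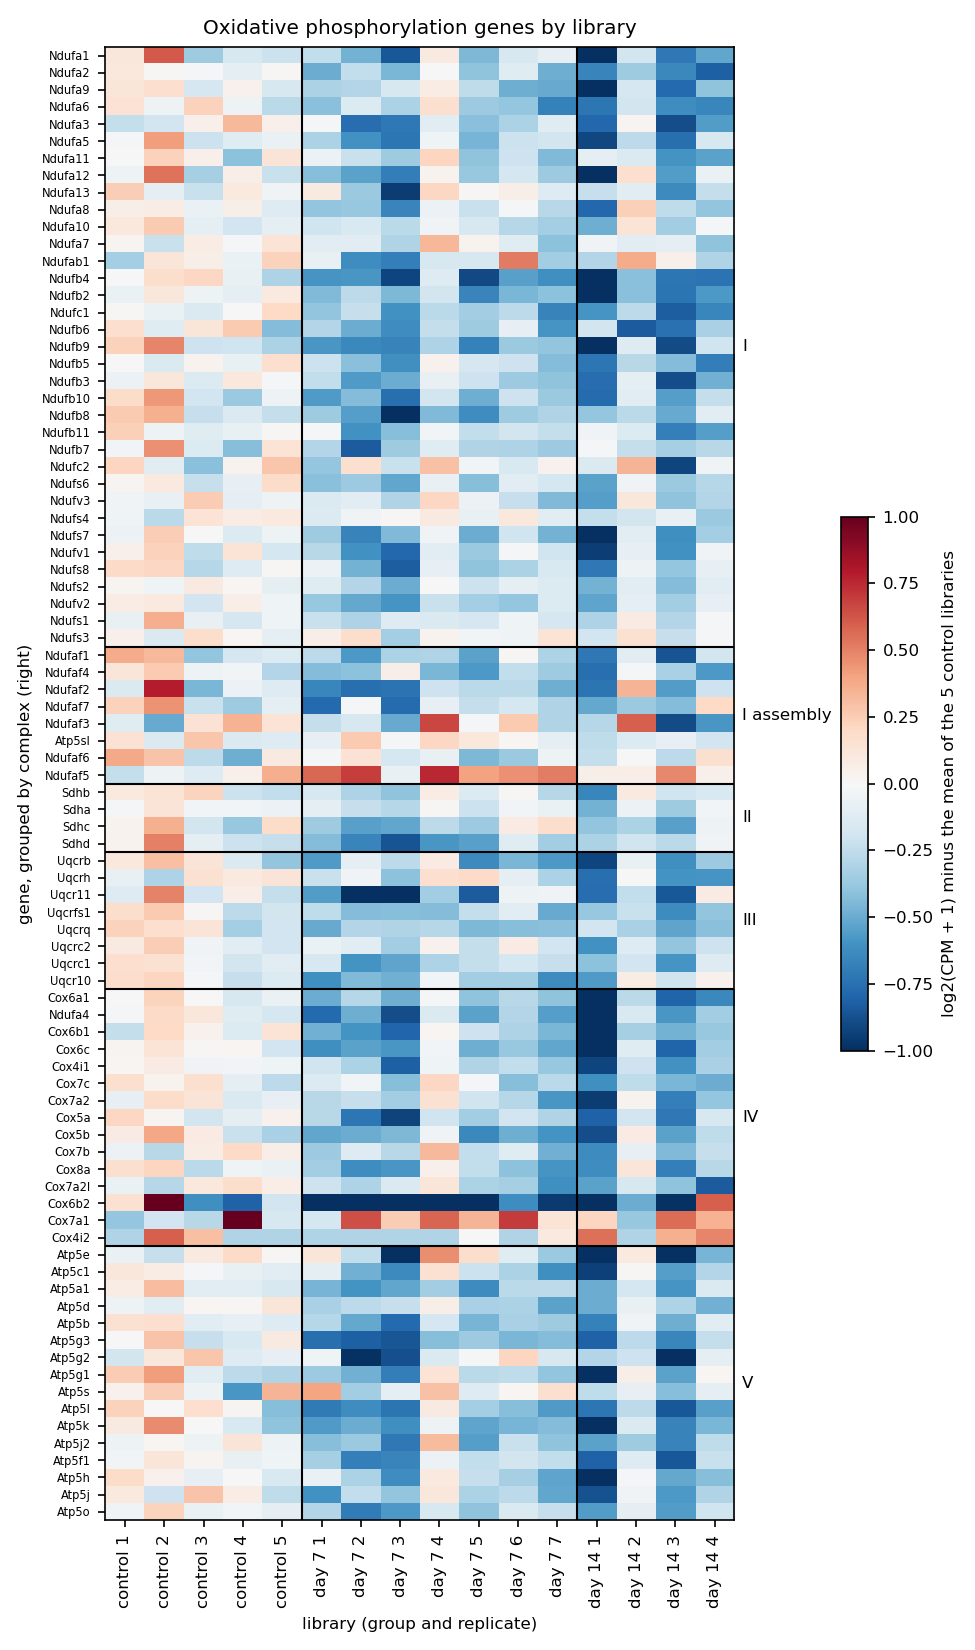
Each row is 1 of the 86 tested genes, grouped by complex, and each column 1 library. Colour gives log2(CPM + 1) minus the mean of the 5 control libraries, clipped at 1 in both directions. Most rows are blue in day 7 libraries 2 and 3 and day 14 libraries 1 and 3, and near white in day 7 library 4.

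**Figure D2:**
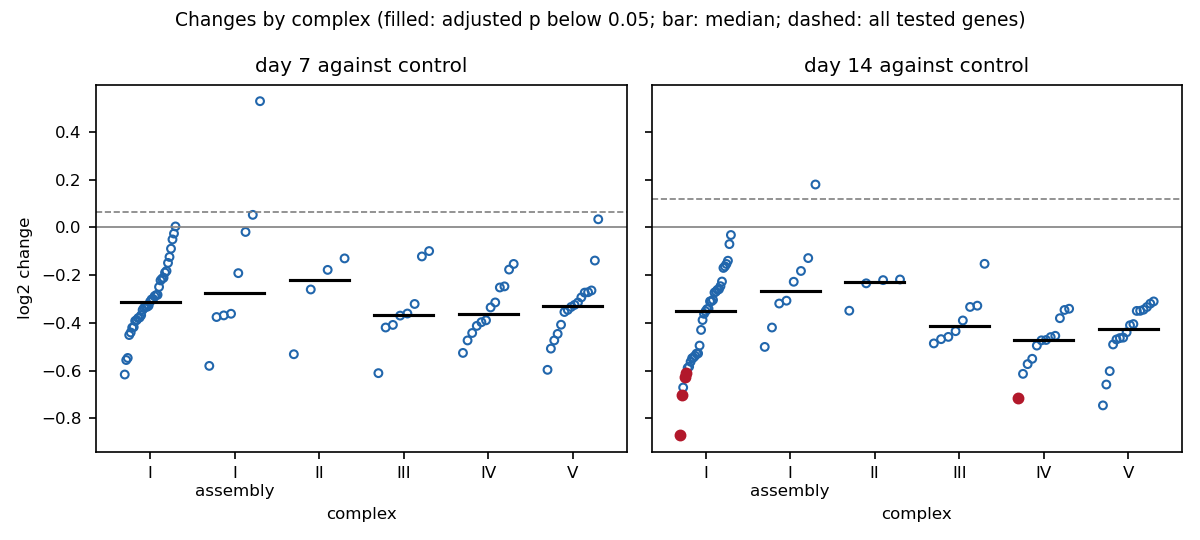
Each circle is the log2 change of 1 gene against control, at day 7 (left) and day 14 (right), by complex, without the tissue isoforms of complex IV. Bars are medians, dashed lines the medians of all 18430 tested genes, and filled circles the 5 genes called at day 14, which are 4 genes of complex I and 1 of complex IV.

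Complex I, the largest of the 5, had 36 member genes, of which 35 were tested, apart from its assembly factors. All 35 had negative changes at day 14 and 34 at day 7, with medians of -0.35 and -0.31, and 4 fell at day 14. The groups within the complex differed in size of change. The 12 Ndufb and Ndufc genes, accessory subunits of the membrane arm, had medians of -0.42 at day 7 and -0.54 at day 14, and 3 of them fell at day 14. The 13 Ndufa accessory genes had medians of -0.28 and -0.36, with 1 that fell. The 7 core subunits, which carry the redox centres, had medians of -0.33 and -0.27, with none called and 3 lower at an unadjusted p of 0.05 at each time. Median transcript lengths in these 3 groups were 747.5, 861 and 1623 bases. Other genes of 10 CPM or more also had lower medians when under 1000 bases than when longer. The differences between subunit groups, and the part of transcript length in them, were not tested.

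Ndufb2 encodes an accessory subunit of the membrane arm and lies on chromosome 6 from 39592574 to 39603382 (GRCm38, plus strand). Its level was 28.7, 32.8, 29.0, 28.3 and 32.3 CPM in control libraries 1 to 5 and 14.2, 22.4, 17.8 and 19.9 CPM in day 14 libraries 1 to 4. At day 7 it ran from 18.8 to 26.4 CPM with a median of 22 CPM. All 11 libraries from mice with lymphoma thus lay below all controls. The log2 change was -0.42 ± 0.12 (SE) at day 7 (edgeR adjusted p = 0.0805) and -0.70 ± 0.14 at day 14 (adjusted p = 0.0186), a level that fell by 38.6%. The call was lost without control 3 or day 14 library 1 or 3, at adjusted p-values of 0.0548 to 0.0845. Its exons overlap those of Braf and Gm16272 on the other strand and of Gm42420 on the same strand. The strand setting and annotation of the counting are not given in the sources used here, so reads from these genes and Ndufb2 cannot be told apart.

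Ndufb4 encodes another membrane arm subunit (chromosome 16, 37647170 to 37654453, minus strand). It had the largest negative change at day 14 among members with a mean of at least 10 CPM. Controls 1 to 5 stood at 50.1, 56.6, 58.0, 47.5 and 40.1 CPM. Day 14 libraries stood at 13.6, 37.2, 30.0 and 29.6 CPM, all below the controls, with library 1 far below the others. Day 7 ran from 26.0 through a median of 32.8 to 45.6 CPM and overlapped the controls through library 4. It was called at day 7 without control 5 (adjusted p = 0.0429) and by DESeq2 (0.0226). The log2 change was -0.62 ± 0.19 (SE) at day 7 (edgeR adjusted p = 0.0854) and -0.87 ± 0.22 at day 14 (adjusted p = 0.0438). It lost its call without control 1, 3 or 4 or day 14 library 1, 3 or 4, at 0.0664 to 0.119, and without controls 1 and 2 together (0.0603). Its change without day 14 library 1 was -0.62. Ndufb4b and Ndufb4c are near copies, so its reads may be split or lost between them.

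Ndufc1, a small membrane arm subunit (chromosome 3, 51404677 to 51408988, minus strand), read 18.1, 17.1, 16.2, 17.9 and 20.7 CPM in the controls. It read 11.6, 14.8, 9.71 and 11.1 CPM at day 14, and 10.9 to 15.2 CPM with a median of 13.9 at day 7. Neither time overlapped the controls. Its log2 changes were -0.42 ± 0.14 (SE, edgeR adjusted p = 0.0999) and -0.61 ± 0.16 (adjusted p = 0.0486). This call lay closest to the threshold and was lost without control 1, 3, 4 or 5 or day 14 library 1, 3 or 4 (0.0627 to 0.180), without controls 1 and 2 together (0.0570), and with RLE scaling (0.0536), library totals (0.108) or no expression filter (0.0630).

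Ndufa2, an accessory subunit of the arm that oxidizes NADH, varied little between controls. The 5 libraries stood at 48.8, 45.7, 44.8, 42.3 and 45.6 CPM. The day 14 libraries stood at 28.3, 35.3, 28.7 and 25.3 CPM, all lower, and day 7 ran from 31.9 through a median of 34.1 to 45.3 CPM, overlapping the controls. The log2 change was -0.31 ± 0.11 (SE) at day 7 (edgeR adjusted p = 0.114) and -0.63 ± 0.13 at day 14 (adjusted p = 0.0211), where the level fell by 35.3%. Without control 3 or 4 or day 14 library 1, 3 or 4 the adjusted p was 0.0502 to 0.0860. Tmco6 overlaps it on the other strand.

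**Figure D3:**
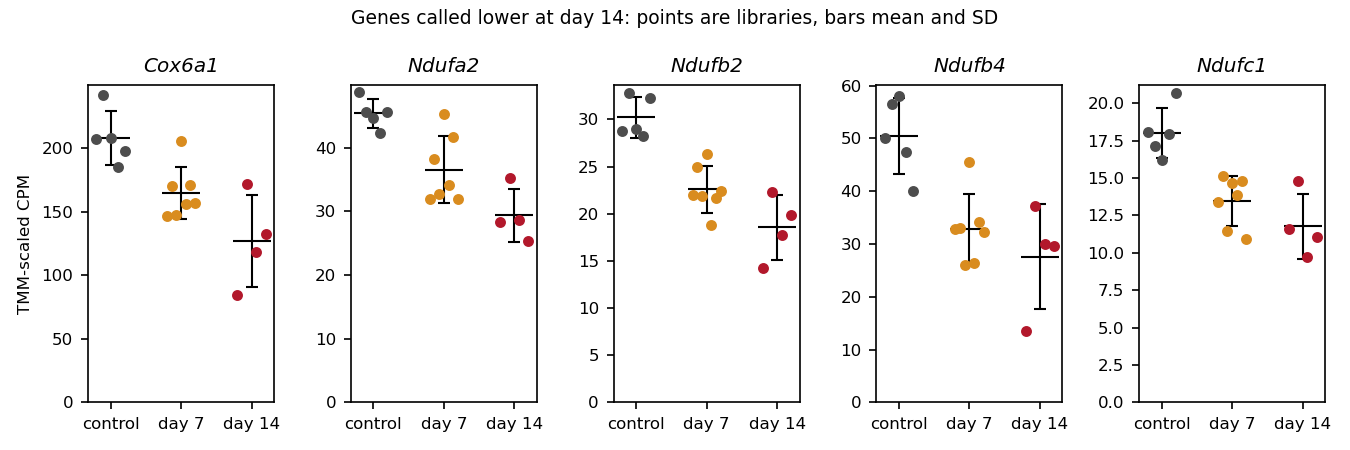
TMM-scaled CPM of the 5 genes called at day 14 in every library, with the mean and SD of each group as bars. All 4 day 14 points lie below all 5 control points in each panel. Of the 35 day 7 points over the 5 panels, 25 lie inside the day 14 range, 7 between it and the lowest control, and 3 at or above the lowest control.

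The other named genes of complex I did not pass the test. Ndufv3, an accessory subunit of the NADH-oxidizing arm and the member of the complex with the most reads, stood at 119, 116, 146, 115 and 118 CPM in controls and at 83.2, 133, 92.4 and 99.5 CPM at day 14. The groups overlapped, and its log2 changes were -0.15 ± 0.12 (SE) and -0.27 ± 0.14 at day 7 and day 14 (edgeR adjusted p = 0.523 and 0.258). Without control 3 they were -0.023 and -0.14, and without day 14 library 2 the day 14 change was -0.42. Ndufs1 carries iron-sulphur clusters that pass electrons on. It stood at 81.1 ± 12.9 CPM in controls, 71.5 ± 4.15 at day 7 and 73.7 ± 10.2 at day 14 (SD, n = 5, 7 and 4; edgeR adjusted p = 0.313 and 0.467). Ndufv1, which binds the flavin that takes electrons from NADH, stood at 53.3 ± 7.64, 42.3 ± 7.86 and 40.7 ± 11.98 CPM (edgeR adjusted p = 0.249 and 0.231). Ndufs3, a core subunit, stood at 21 ± 1.94, 21.1 ± 2.44 and 20.0 ± 2.59 CPM, with edgeR adjusted p-values of 0.991 and 0.766, and had the smallest change at day 14 among members of the complex with a mean of at least 10 CPM. Ndufs5 was listed at 0 reads in all 16 libraries; Ndufs5-ps is a near copy, and how the counting treated it is not given in the sources used here.

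The 8 complex I assembly factors, which help build the complex but are not part of it, were mixed: 7 had negative changes at day 14 and 6 at day 7, with medians of -0.27 and -0.28, and none was called by edgeR. At an unadjusted p of 0.05, 2 were lower at each time, and 1 was higher at day 7. That gene was Ndufaf5, which modifies a core subunit, named here after its values were seen. It read 6.67, 7.73, 7.25, 8.32 and 10.6 CPM in controls, 7.59 to 14.2 CPM with a median of 11.8 at day 7, and 8.40, 8.44, 11.6 and 8.34 CPM at day 14. The log2 change at day 7 was 0.53 ± 0.18 (SE, edgeR adjusted p = 0.104), and 6 of 7 day 7 libraries lay above every control. It was called without control 5 (adjusted p = 0.0434) and by DESeq2 (0.0392). Ndufaf1, an early factor of membrane arm assembly, stood at 12.9 ± 3.21, 9.94 ± 1.51 and 9.12 ± 2.60 CPM in controls, at day 7 and at day 14 (SD, edgeR adjusted p = 0.278 and 0.200). Atp5sl is named for a likeness to an ATP synthase factor but takes part in complex I assembly. It stood at 39.2 ± 5.70, 40.7 ± 4.11 and 34.6 ± 1.82 CPM (edgeR adjusted p = 0.827 and 0.363).

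Complex II, succinate dehydrogenase, also works in the tricarboxylic acid cycle and has 4 subunits, all encoded in the nucleus. All 4 had negative changes at both times, with medians of -0.22 at day 7 and -0.23 at day 14, and none was called. Sdha, the subunit that binds the flavin and oxidizes succinate, stood at 251, 278, 250, 250 and 244 CPM in controls and 183, 244, 199 and 250 CPM at day 14. Libraries 2 and 4 lay in or beside the control range and libraries 1 and 3 below it. Its log2 change was -0.22 ± 0.10 (SE, edgeR adjusted p = 0.218) at day 14 and -0.13 ± 0.09 (adjusted p = 0.439) at day 7, and -0.12 at day 14 without day 14 library 1. Sdhb, the iron-sulphur subunit, stood at 82.4 ± 12.1, 72.8 ± 8.94 and 70.7 ± 14.5 CPM (SD, edgeR adjusted p = 0.453 and 0.361).

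Of the membrane anchors of complex II, Sdhc stood at 35.3 ± 7.19 CPM in controls, 29.5 ± 6.22 at day 7 and 27.7 ± 4.20 at day 14 (SD, edgeR adjusted p = 0.362 and 0.258). Sdhd had the largest change of the complex at day 7. It read 42.5, 59.3, 38.9, 35.5 and 35.1 CPM in controls, 22.4 to 38.1 CPM with a median of 28.1 at day 7, and 33.1, 35.9, 34.3 and 40.5 CPM at day 14. Only day 7 library 6 lay inside the control range. Its log2 change was -0.53 ± 0.14 (SE, edgeR adjusted p = 0.0777) at day 7 and -0.23 ± 0.17 (adjusted p = 0.396) at day 14, which was -0.08 without control 2. Sdhd was called at day 7 without control 5 (adjusted p = 0.0303) and by DESeq2 (0.0157).

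Complex III, which oxidizes the quinol made by complexes I and II, had 8 members, all with negative changes at both times. The medians were -0.37 at day 7 and -0.41 at day 14. None was called, and 6 were lower at an unadjusted p of 0.05 at each time. Uqcrc1 and Uqcrc2 encode the large core proteins. Uqcrc1 stood at 105 ± 11.4, 83.8 ± 9.78 and 83.4 ± 12.1 CPM (SD, edgeR adjusted p = 0.0973 and 0.129), and Uqcrc2 at 103 ± 12.6, 94.4 ± 10.1 and 81.5 ± 11.8 CPM (edgeR adjusted p = 0.548 and 0.120). Uqcrfs1, the Rieske iron-sulphur protein that takes an electron from the quinol, stood at 25.0, 26.6, 22.3, 18.2 and 19.4 CPM in controls and at 16.7, 18.8, 13.9 and 16.6 CPM at day 14. Day 7 ran from 15.3 through 16.2 to 20.4 CPM, so both groups overlapped the lower controls, and the log2 changes were -0.37 ± 0.13 (SE) and -0.43 ± 0.15 (edgeR adjusted p = 0.112 and 0.109).

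The small subunits of complex III gave both the largest and the smallest day 14 change among its members with a mean of at least 10 CPM. Uqcrb had the largest. It stood at 80.1, 91.9, 81.2, 67.1 and 56.4 CPM in controls and 38.9, 70.5, 48.3 and 57.4 CPM at day 14, a log2 change of -0.49 ± 0.18 (SE, edgeR adjusted p = 0.135). Without day 14 library 2 it was called (-0.65, adjusted p = 0.0470). Uqcr10 had the smallest, at 53.7, 55.4, 46.8, 40.4 and 43.2 CPM in controls against 31.9, 50.2, 41.4 and 49.0 CPM (log2 change -0.15 ± 0.15, edgeR adjusted p = 0.543), and without day 14 library 1 it was -0.0063. At day 7 Uqcr10 ran from 30.3 through 34.8 to 46.6 CPM, with 6 of 7 libraries below every control, a log2 change of -0.42 ± 0.13 (SE, adjusted p = 0.0893).

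Complex IV, cytochrome c oxidase, had 20 members, and 8 of them are forms known from muscle, lung, testis or other tissues. The 12 others had negative changes at both times, with medians of -0.36 at day 7 and -0.47 at day 14. Of these, 8 were lower at an unadjusted p of 0.05 at day 7 and 11 at day 14, and 1 fell. The gene that fell was Cox6a1, the widely expressed form of subunit 6a (chromosome 5, 115345642 to 115348981, minus strand). It stood at 207, 242, 208, 185 and 198 CPM in controls. Day 14 libraries stood at 84.0, 172, 118 and 132 CPM, all lower, while day 7 ran from 146 through 156 to 206 CPM. On the log2 scale the change was -0.34 ± 0.13 (SE) at day 7 (edgeR adjusted p = 0.154) and -0.71 ± 0.16 at day 14 (adjusted p = 0.0257), and the level fell by 39.0%. Without control 3 or day 14 library 1, 3 or 4 the call was lost (adjusted p 0.0615 to 0.0984).

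Cox4i1, a subunit that takes part in regulation by ATP, varied little between controls, at 122, 128, 118, 118 and 117 CPM. It lay below them in all 4 day 14 libraries, at 63.2, 104, 78.8 and 96.0 CPM, and in all 7 at day 7, at 68.0 to 117 CPM with a median of 97.9. Its log2 changes were -0.31 ± 0.12 (SE, edgeR adjusted p = 0.147) and -0.50 ± 0.14 (adjusted p = 0.0622), and it was called at day 14 without day 14 library 2 (0.0229), by limma-voom (0.0432), by DESeq2 (0.0174) and with a filter of 1 CPM (0.0440). Cox5a, a subunit on the matrix side, stood at 72.8 ± 7.48 CPM in controls, 54.6 ± 10.02 at day 7 and 53.1 ± 12.6 at day 14 (SD, edgeR adjusted p = 0.107 and 0.126). Cox7a2 stood at 98.8 ± 10.2, 83.3 ± 13.4 and 71.9 ± 21.9 CPM (edgeR adjusted p = 0.346 and 0.124). Cox8a had the smallest day 14 change of the complex among members with a mean of at least 10 CPM. It stood at 133 ± 17.7, 102 ± 18.3 and 105 ± 28.6 CPM (edgeR adjusted p = 0.125 and 0.235). Both Cox7a2 and Cox8a were called at day 14 without day 14 library 2, at adjusted p-values of 0.0179 and 0.0486. Ndufa4 carries a complex I name but is a subunit of complex IV. It stood at 40.3, 46.7, 44.0, 37.3 and 35.9 CPM in controls and 11.7, 36.4, 26.8 and 31.7 CPM at day 14, with library 1 far below the rest and library 2 inside the control range (log2 change -0.61 ± 0.23, edgeR adjusted p = 0.135). Without day 14 library 1 its change was -0.34.

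Cox7a2l had the most reads of complex IV. It joins complexes III and IV into supercomplexes, and C57BL/6 mice are known to carry a shortened form of the protein. Controls 1 to 5 stood at 258, 222, 292, 306 and 283 CPM and day 14 libraries at 186, 242, 205 and 151 CPM, where library 2 lay above control 2. Its log2 change was -0.25 ± 0.12 (SE, edgeR adjusted p = 0.256) at day 7 and -0.47 ± 0.14 (adjusted p = 0.0739) at day 14. The day 14 change passed without control 2 (0.0389), without controls 1 and 2 (0.0375) or without day 14 library 2 (0.0234).

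The tissue forms of complex IV were scarce. Cox6a2, Cox7b2, Cox8b, Cox8c and Ndufa4l2 had at most 11, 3, 16, 8 and 17 reads in any library and were not tested. Cox6a2 and Cox8b are forms of heart and skeletal muscle. Cox7a1, also a muscle form, had 3, 6, 5, 39 and 7 reads in controls 1 to 5, 5 to 31 at day 7 and 12, 2, 22 and 14 at day 14. Cox4i2 was tested and is named here after its values were seen. It had 0, 19, 13, 0 and 0 reads in controls 1 to 5. At day 7 it had 0, 0, 0, 0, 5, 0 and 8 reads, and at day 14 it had 14, 0, 11 and 12. Its log2 change at day 14 against day 7 was 2.61, the highest of all members, and rests on these few reads. Cox6b2, the testis form of subunit 6b, is named here after its values were seen. It read 4.08, 11.6, 1.99, 1.60 and 3.01 CPM in controls, 0.0466 to 1.97 CPM with a median of 0.747 at day 7 and 0.978, 2.25, 1.30 and 5.93 CPM at day 14. Its log2 change at day 7 was -2.42 ± 0.71 (SE, edgeR adjusted p = 0.0823), called without control 5 (0.0483) and by DESeq2 (0.0151). It moved with the libraries high in neutrophil and dividing-cell markers, controls 1 and 2 and day 14 library 4, and without controls 1 and 2 together the log2 changes were -1.40 at day 7 and 0.25 at day 14. The part of other cells in it was not tested.

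Complex V, the ATP synthase, had 16 members, all tested. All had negative changes at day 14 and 15 at day 7, with medians of -0.42 and -0.33. None was called, while 10 at day 7 and 12 at day 14 were lower at an unadjusted p of 0.05. In the catalytic F1 head, Atp5a1 encodes the alpha subunit and was the member with the most reads of all. It stood at 581, 683, 512, 513 and 495 CPM in controls, 356 to 461 CPM with a median of 399 at day 7 and 392, 489, 367 and 499 CPM at day 14. Day 7 did not overlap the controls and day 14 did. It changed on the log2 scale by -0.45 ± 0.11 (SE, edgeR adjusted p = 0.0777) and then -0.35 ± 0.13 (adjusted p = 0.123).

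Atp5b, the beta subunit that holds the catalytic sites, also lay below the controls in all day 7 libraries. It stood at 445, 451, 370, 378 and 367 CPM in controls, 234 to 357 CPM with a median of 313 at day 7 and 250, 392, 284 and 372 CPM at day 14. Its log2 change was -0.41 ± 0.12 (SE, edgeR adjusted p = 0.0825) at day 7, where no library overlapped, and -0.31 ± 0.14 (adjusted p = 0.200) at day 14. Atp5a1 and Atp5b were called at day 7 without control 5 (adjusted p = 0.0292 and 0.0473) and by DESeq2 (0.00371 and 0.0126). Atp5e, the epsilon subunit, had the largest day 14 change of the complex and the widest spread. Controls lay at 31.5, 27.9, 35.1, 37.9 and 33.3 CPM, day 14 libraries at 7.31, 35.3, 12.9 and 23.6 CPM, and day 7 libraries between 8.05 and 46.0 CPM with a median of 30.3. On the log2 scale the change was -0.75 ± 0.39 (SE, edgeR adjusted p = 0.266) at day 14, and it was -0.47 without day 14 library 1 and -1.18 without library 2.

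Atp5g1, Atp5g2 and Atp5g3 encode the same mature c subunit, which forms the rotating ring in the membrane. Atp5g3 stood at 57.8, 70.1, 48.9, 51.7 and 61.1 CPM in controls, 31.2 to 44.4 CPM with a median of 41.6 at day 7 and 32.3, 47.7, 36.2 and 48.7 CPM at day 14. Neither time overlapped the controls. Its log2 changes were -0.60 ± 0.13 (SE, edgeR adjusted p = 0.0709) and -0.49 ± 0.15 (adjusted p = 0.0780). At day 7 it was called without control 5 (0.0293) and by DESeq2 (0.00223), and at day 14 without day 14 library 2 (0.0462) and by DESeq2 (0.0413). Atp5g1 stood at 76.0 ± 17.7, 59.8 ± 11.2 and 59.9 ± 20.3 CPM (SD, edgeR adjusted p = 0.295 and 0.338). Atp5g2 stood at 10.5 ± 1.56, 8.72 ± 2.75 and 7.89 ± 2.18 CPM (edgeR adjusted p = 0.572 and 0.375).

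The remaining parts of the enzyme hold the head still and shape the membrane. The 4 peripheral stalk genes had medians of -0.33 at day 7 and -0.45 at day 14, and 3 and then 4 of them were lower at an unadjusted p of 0.05. The 3 small membrane subunits, Atp5k, Atp5l and Atp5j2, had medians of -0.47 and -0.60, and all 3 were lower at an unadjusted p of 0.05 at each time. Atp5s, the coupling factor B, had few reads, at 3.45 ± 1.01, 3.53 ± 0.802 and 2.77 ± 0.412 CPM (SD, edgeR adjusted p = 0.964 and 0.534).

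Per kilobase of transcript, the scale on which genes can be set side by side, complex IV and V genes were the most abundant in controls. Cox6a1 stood at 364 CPM per kilobase, Cox6c at 359, Atp5c1 at 263, Atp5k at 262 and Cox7a2l at 253. In complex I the highest was Ndufa6 at 135, in complex II Sdha at 87.8 and in complex III Uqcrh at 174. The complex I assembly factors lay between 5.99 for Ndufaf6 and 19.1 for Ndufaf2, and the tissue forms of complex IV between 0 for Cox7b2 and 8.05 for Cox6b2. Summed over all members, the level was 5930 to 7039 CPM in controls, 4409 to 6165 at day 7 and 3878 to 5929 at day 14. Without TMM scaling, the members made up between 0.457% and 0.693% of a library's gene counts.

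Among related genes, 5 subunits or partners of the complexes that the symbol rule leaves out (Cyc1, Cycs, Usmg5, Atpif1 and 2010107E04Rik) had negative changes at both times, with medians of -0.31 and -0.47, and none was called. At an unadjusted p of 0.05, 3 were lower at each time. Atpif1, which inhibits the ATP synthase when it runs in reverse, stood at 272, 487, 101, 98.7 and 66.8 CPM in controls, 37.9 to 101 CPM with a median of 44.3 at day 7 and 37.6, 157, 71.3 and 184 CPM at day 14. Controls 1 and 2 held the highest values and were also high in erythroid transcripts (323 and 571 CPM against 29.4 to 84.4 in the other controls). Its log2 changes were -1.80 ± 0.45 (SE, edgeR adjusted p = 0.0777) and -0.86 ± 0.53 (adjusted p = 0.332). Without control 2 the changes were -1.20 and -0.26, and without controls 1 and 2 together -0.59 and 0.34. Atpif1 was called at day 7 without control 5 (adjusted p = 0.0244) and by DESeq2 (0.0182).

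Of 26 tested genes for assembly and for copper or haem delivery, 18 had negative changes at day 14 with a median of -0.19, and 1 fell. By unadjusted p under 0.05, 7 were lower and 1, Cox18, was higher (log2 change 0.41 ± 0.19, edgeR adjusted p = 0.215). The gene that fell was Pet100, needed to build complex IV, which read 17.5, 20.2, 14.7, 14.3 and 13.2 CPM in controls and 8.74, 10.1, 10.3 and 9.68 CPM at day 14 (log2 change -0.72 ± 0.18, edgeR adjusted p = 0.0390). The groups did not overlap. Its call was lost without control 1, 3 or 4 or day 14 library 1, 3 or 4 (0.0682 to 0.152) and without controls 1 and 2 together (0.0855). At day 7 this list had 15 negative changes, a median of -0.06 and no call, and 1 gene lower and 1 higher at an unadjusted p of 0.05. All 13 tricarboxylic acid cycle genes, which supply the NADH and succinate, had negative changes at both times with medians of -0.28 and -0.30. None was called, and 9 and then 5 were lower at an unadjusted p of 0.05. Ogdh, a subunit of the 2-oxoglutarate dehydrogenase and the most abundant of them, stood at 310 ± 20.1, 296 ± 14.3 and 273 ± 39.2 CPM (SD, edgeR adjusted p = 0.702 and 0.268).

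Of 12 regulators of mitochondrial biogenesis, 9 had negative changes at day 14 with a median of -0.24, and 1 fell, Yy1, the transcription factor whose letters were searched above. It stood at 166, 144, 167, 171 and 169 CPM in controls and 109, 134, 121 and 120 CPM at day 14, without overlap (log2 change -0.43 ± 0.10, edgeR adjusted p = 0.0293). This call too was lost without control 1, 3 or 4 or day 14 library 1, 3 or 4 (0.0576 to 0.186). At an unadjusted p of 0.05, 6 were lower and 1 higher at day 14. The higher one was Ppargc1a, a coactivator known to promote mitochondrial biogenesis, named here after its values were seen. It had the largest change of the list and few reads, at 0.129 to 1.67 CPM in controls, 0.556 to 1.43 at day 7 and 2.82, 2.19, 2.54 and 2.96 CPM in day 14 libraries 1 to 4. All 4 lay above all other libraries (log2 change against control 1.58 ± 0.60, edgeR adjusted p = 0.138, and against day 7 1.55 ± 0.55, adjusted p = 0.180). At day 7, 7 of the 12 were negative against control, with a median of -0.07, no call, and 1 gene lower at an unadjusted p of 0.05.

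How far the members lay below the controls differed from library to library, and so did the share of reads outside gene models. For each library the median over the 86 members of log2(CPM + 1) minus the control mean was taken. It was 0.04, 0.16, -0.03, -0.08 and -0.09 in controls 1 to 5, -0.30, -0.41, -0.52, -0.03, -0.31, -0.22 and -0.36 in day 7 libraries 1 to 7, and -0.64, -0.12, -0.56 and -0.27 in day 14 libraries 1 to 4. The lowest were day 14 libraries 1 and 3 and day 7 library 3, which had 69.8%, 66.3% and 68.0% of reads outside gene models. Day 7 library 4 and day 14 library 2, at 54.6% and 54.4%, lay nearest to the controls and had 16 and 24 members below the lowest control, against 71 and 74 in day 14 libraries 1 and 3. Day 7 libraries 1, 6 and 7 had nearly the same shares (54.7%, 55.0% and 55.8%) but medians of -0.30, -0.22 and -0.36, with 53, 43 and 60 members below the lowest control. Control 2, at 56.7%, had the highest value of all. With this share as a covariate no member was called at either time, 65 of 86 changes were negative at each time, and the medians were -0.15 at day 7 and -0.13 at day 14, beside -0.08 over all genes at both times. The T cell genes Cd3e, Cd3g and Cd4 summed to 1890 to 3801 CPM in controls, 2661 to 4275 at day 7 and 2003, 3273, 3007 and 2331 CPM at day 14. Whether RNA quality or the makeup of the cells has a part in the lower levels was not tested.

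**Figure D4:**
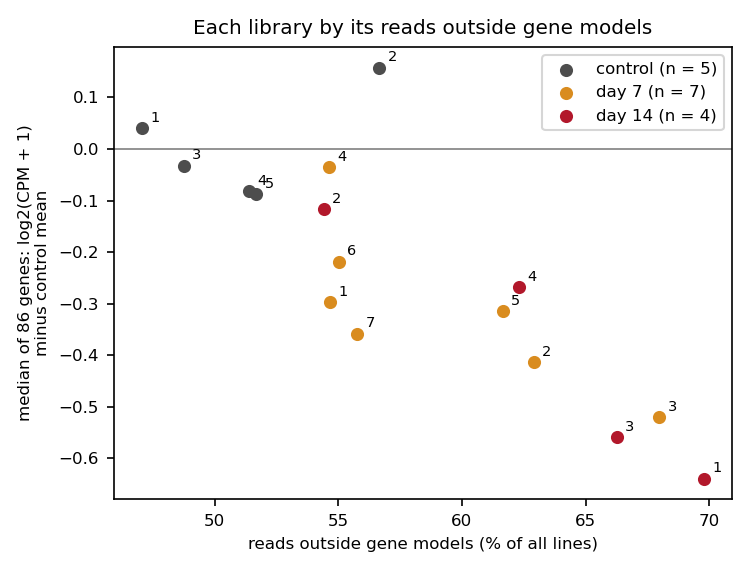
Each point is 1 library: on the x axis the percent of reads outside gene models, on the y axis the median over 86 genes of log2(CPM + 1) minus the control mean. Apart from control 2 (56.7% and 0.16), libraries with more reads outside gene models lie mostly lower, from day 14 library 2 at 54.4% and -0.12 to library 1 at 69.8% and -0.64, while the 5 libraries from mice with lymphoma at 54.4% to 55.8% range from -0.36 to -0.03.

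Most members have short transcripts, with a median length of 873 bases over those tested, against 2754 over all tested genes. Other short genes had negative medians too. Among genes under 1000 bases whose mean reached 10 CPM, the median log2 change at day 14 was -0.47 over 42 members and -0.34 over 477 other genes. From 1000 to under 2000 bases it was -0.33 over 23 members and -0.23 over 1625 others, and from 2000 bases -0.34 over 9 members and -0.12 over 6225 others. At day 7 the medians of members and others were -0.35 and -0.21 under 1000 bases, -0.29 and -0.12 in the middle class and -0.26 and 0.0016 from 2000 bases. In each length class the members' median against control lay below that of the other genes at both times. At day 14 against day 7 it lay above: -0.12 and -0.16 under 1000 bases, -0.08 and -0.10 in the middle class, and -0.06 and -0.10 from 2000 bases. The part of transcript length in the members' lower levels was not tested further.

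**Figure D5:**
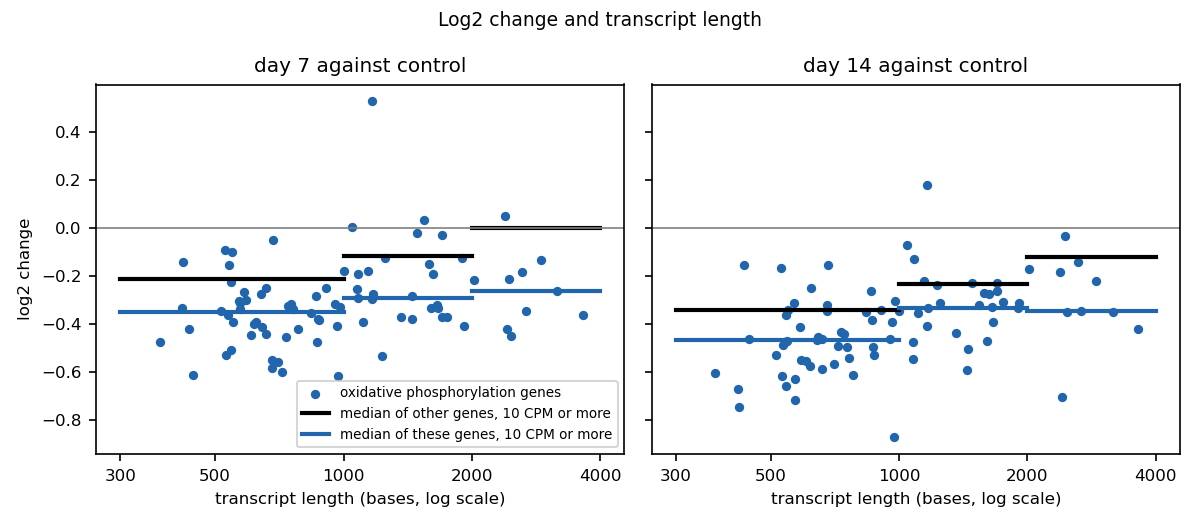
Points are the log2 changes against control of 83 tested genes, without the tissue isoforms of complex IV. The x axis is transcript length in bases on a log scale, at day 7 (left) and day 14 (right). Lines are medians in 3 length classes for genes with a mean of 10 CPM or more, blue for these genes and black for all others; blue lies below black in every class.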

How the data were processed

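RNA was sequenced from CD4 T cells of 16 mice, 1 library each per the design text. A Macherey-Nagel kit gave the total RNA and a NuGEN mouse kit the libraries, per the labels' protocols. The authors deposited 1 table of whole-number counts per gene. The mm10 build is named with HTSeq 0.6.1, cutadapt 1.8.1 and bcl2fastq 2.20.0.422, per the submitters' processing notes. The aligner, annotation, read layout and strand setting are not given in the sources used here. Of the 5 summary lines that name no gene, 2 were at 0 throughout. All 5 were left out of library sizes. Reads outside gene models made up 47.1% to 69.8% of a library. No per-sample column of another source was met.

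The tests ran in R 4.3.3 with edgeR 4.0.16: TMM scaling, filterByExpr (18430 genes kept, 5049 removed), a quasi-likelihood fit to all 16 libraries, Benjamini-Hochberg adjustment over all tested genes and a threshold of 0.05. The common biological coefficient of variation was 54.5%. SE is the log2 change divided by the root of the F statistic. limma 3.58.1 and DESeq2 1.42.0 were alternatives, beside other scalings and filters, fits to the compared groups alone, a replicate block, the share of reads outside gene models as a covariate, and leaving out each library. Only the main edgeR fit was run on simulated data, which had a smaller spread than these libraries. The alternatives were not. Indices per library used log2(CPM + 1). Matplotlib 3.10.9 drew the figures, and pandas 2.3.3 with NumPy 2.4.6 ran under Python 3.11.15. Positions and transcript lengths came from GENCODE M21 (GRCm38), which matched 98.4% of symbols. The libraries were not found to repeat: no columns were identical, and pairwise r of log2(CPM + 1) ran from 0.939 to 0.995. Replicate numbers belong to different mice and do not pair the groups, and p-values measure the spread between these mice.

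The members, the related and marker lists, and the tests were chosen with earlier results of these data known. Genes were named if called, if they had the most reads or the largest or smallest day 14 change in their complex (at a mean of at least 10 CPM), if in a panel of known subunits, and, in related lists, if called or most abundant. Cox4i2, Cox6b2, Ndufaf5, Ppargc1a, Cox18 and the genes given per kilobase were named after their values were seen.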

Additional observations from a re-analysis of the deposited data

Results flagged for a closer look

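In 141 groups of 4 to 7 libraries (each named gene and index in each group), a highest or lowest library was set against the others with Dixon's gap test at the 95% level, which flags about 1 group in 20 by chance. It found 11. In day 7 library 4 the levels of Cox6a1 (206 CPM, others 146 to 171), Ndufb4 (45.6, others 26.0 to 34.1) and Uqcr10 (46.6, others 30.3 to 37.2) stood above the other day 7 libraries.

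In control library 2, Sdha (278 CPM, others 244 to 251), Ndufs1 (104, others 71.3 to 78.1) and Cox6b2 (11.6, others 1.60 to 4.08) were highest of the controls. The mean log2(CPM + 1) over complex IV was also highest there (5.72, others 5.42 to 5.5), and Yy1 was lowest (144 CPM, others 166 to 171). Of the remaining 3, Ndufv3 stood at 146 CPM in control 3 (others 115 to 119), Cox7a1 at 1.96 CPM in control 4 (others 0.112 to 0.301) and Ndufaf5 at 11.6 CPM in day 14 library 3 (others 8.34 to 8.44).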

How the results depend on the processing

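Directions of the members' medians against control held in every setting run, while their sizes varied. Leaving out 1 library at a time, the genes called numbered 0 to 1455 at day 7, 65 to 1458 at day 14 and 25 to 377 between the times. Members called numbered 0 to 13, 0 to 28 and 0 to 2, and the members' medians ran from -0.38 to -0.26, -0.50 to -0.29 and -0.20 to -0.05. Of the changes of named genes that were not called, 17 of 39 at day 7 and 21 of 32 at day 14 moved by over 1.5 times in at least 1 of these runs, most often without control 3 (12) and without day 14 library 1 (15). The number of libraries limits what single genes can show. Scaling by library totals moved the day 14 median of all genes from +0.12 to +0.32. It left 3 members called at day 14 with a median of -0.20, and turned the median between the times to 0.038. It also turned Atp5sl (0.019), Ndufs3 (0.12), Uqcr10 (0.033), Ndufs1 (0.049) and Ogdh (0.0084) at day 14. Without the expression filter 381 genes were called at day 14, and with a mean of at least 1 CPM 8 members. limma-voom called 1003 genes and 11 members at day 14. DESeq2 called 1603 genes and 21 members at day 7, 1551 and 17 at day 14, and 707 genes between the times. Fits to the compared groups alone called 4 genes at day 7, 4 genes and 0 members at day 14, and 712 genes between the times.

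With the replicate block, 35 genes were called at day 7, 46 genes and 0 members at day 14, and 28 genes between the times, and the day 7 change of Ndufs3 turned to -0.024. The numbers are those of different mice: deviations of 13 same-numbered pairs correlated at -0.31 to 0.31 (median -0.07), and 2 pairs exceeded 0.1. With the share of reads outside gene models as a covariate, 0 genes were called at day 7 and 1 gene and 0 members at day 14. Between the times 85 genes were called. The members' medians against control were then -0.15 at day 7 and -0.13 at day 14, beside -0.08 over all genes at both times. Day 7 changes turned for Atp5e (0.60), Ndufv3 (0.039), Sdha (0.00113), Uqcrc2 (0.017), Sdhb (0.034), Atp5g2 (0.016) and Ogdh (0.054). Day 14 changes turned for Atp5b (0.038), Atp5e (0.31), Ndufv3 (0.00187), Ndufs3 (0.21), Uqcr10 (0.031), Ndufv1 (0.039), Sdhb (0.10), Cox5a (0.018), Atp5g1 (0.040) and Atp5g2 (0.075). Without controls 1 and 2 together, added after the data were seen, 0 genes were called at day 7 and 942 at day 14, and Ndufs3 at day 7 (-0.029), Cox6b2 (0.25) and Atpif1 (0.34) at day 14 turned. Leaving out single libraries gave ranges across 0 for Ndufs3 (-0.033 to 0.11), Atp5e (-0.27 to 0.041), Atp5s (-0.056 to 0.15) and Ogdh (-0.10 to 0.020) at day 7 and for Ndufs3 (-0.16 to 0.032) at day 14. RLE scaling called 2, 539 and 159 genes, and 5 members at day 14. The causes of these shifts were not tested.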
